A study of Mus musculus with 24 samples.

Results

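Integrins and laminins were followed as a group of 35 genes, 25 integrin subunits and 10 laminin chains, out of 18193 genes with a probe set on the array. A gene belonged to the group if its symbol in the array's annotation was Itga or Itgb with a subunit number or letter, or Lama, Lamb or Lamc with a number. Genes of integrin-binding proteins such as Itgb1bp1 were left out. Each gene was read on the one of its probe sets with the highest mean over 24 arrays, and 21 of the 35 had more than 1 probe set, 76 in all. The cells were embryonic cortical neurons cultured from mice with the Il1rap-/- genotype, a loss that every group carried, controls included. Il1rap encodes the accessory chain of the interleukin-1 receptor. The neurons expressed CD25 (the control protein, a chain of the interleukin-2 receptor), AcP, AcPb (a form of AcP from the same gene) or AcP+AcPb. Cultures of these 4 arms received either a control stimulus or IL-1b at 10 ng/ml for 4 h, which gave 8 groups of 3 arrays. The sources used here do not give how the receptors were brought into the cells, nor the age and number of embryos. Whether the 3 arrays of a group stand for separate cultures is not stated, so a p-value measures their spread alone, which may be technical.

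Integrins are receptors made of an alpha and a beta chain that span the cell membrane and tie the matrix, or a neighbouring cell, to the actin skeleton. The alpha chain sets much of what is bound: the alpha v, alpha 5, alpha 8 and alpha IIb chains bind proteins with an RGD motif such as fibronectin, the alpha 3, alpha 6 and alpha 7 chains bind laminins, and the alpha 1, alpha 2 and alpha 10 chains bind collagens. Laminins are trimers of an alpha, a beta and a gamma chain and form the sheet of basement membranes. In the developing cortex the radial glia, the basement membrane at the brain surface and the blood vessels carry much of both families, and neurons use integrins when they migrate and extend processes.

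The arms differed in some members without IL-1b, and the promoters of 5 of these are shown for their sequence context. Of the 35 members, 23 had an entry in the RefSeq promoter table (build GRCm38.p6), which holds 300 bases per start, 250 before it and 50 after. Itga6, Itga7, Itgae, Itgal, Itgb2, Itgb3, Itgb4, Lama1, Lama3, Lama4, Lamc1 and Lamc3 had none. Capitals mark matches on either strand. The motifs searched were the GC box with the letters GGGCGG, the CCAAT box that NF-Y binds, the TATA box with the letters TATAAA, the AP-1 site with the letters TGANTCA, the NF-kB consensus, and the CArG box that serum response factor binds. Matches of different motifs may overlap. The first 3 genes read lower and the last pair higher in the arms other than CD25.
Itgav, chr2:83724147-83724446, plus strand: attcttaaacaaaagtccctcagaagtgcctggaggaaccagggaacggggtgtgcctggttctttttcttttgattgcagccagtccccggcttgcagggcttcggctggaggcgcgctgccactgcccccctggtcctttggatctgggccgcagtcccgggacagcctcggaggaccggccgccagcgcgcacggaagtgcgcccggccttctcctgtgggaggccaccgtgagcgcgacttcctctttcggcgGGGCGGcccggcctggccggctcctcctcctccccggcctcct
Itga8, chr2:12301895-12302194, minus strand: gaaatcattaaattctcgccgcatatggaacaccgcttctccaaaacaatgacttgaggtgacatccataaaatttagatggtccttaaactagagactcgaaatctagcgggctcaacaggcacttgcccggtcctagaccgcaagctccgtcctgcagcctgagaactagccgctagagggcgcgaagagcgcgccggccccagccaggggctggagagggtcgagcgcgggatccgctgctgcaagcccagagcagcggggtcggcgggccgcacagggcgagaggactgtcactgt
Itgb8, chr12:119238227-119238526, minus strand: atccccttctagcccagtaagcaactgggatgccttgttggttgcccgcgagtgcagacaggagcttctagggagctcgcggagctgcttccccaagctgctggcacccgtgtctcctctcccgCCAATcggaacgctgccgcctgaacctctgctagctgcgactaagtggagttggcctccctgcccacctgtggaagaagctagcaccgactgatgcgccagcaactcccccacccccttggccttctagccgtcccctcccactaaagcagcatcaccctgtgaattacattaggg
Lama2, chr10:27616893-27617192, minus strand: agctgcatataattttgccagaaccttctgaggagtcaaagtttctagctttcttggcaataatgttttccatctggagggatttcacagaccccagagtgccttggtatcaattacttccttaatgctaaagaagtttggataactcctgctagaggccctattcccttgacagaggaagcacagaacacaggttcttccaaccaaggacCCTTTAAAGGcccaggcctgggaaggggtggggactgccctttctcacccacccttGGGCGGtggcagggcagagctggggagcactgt
Itgb5, chr16:33829415-33829714, plus strand: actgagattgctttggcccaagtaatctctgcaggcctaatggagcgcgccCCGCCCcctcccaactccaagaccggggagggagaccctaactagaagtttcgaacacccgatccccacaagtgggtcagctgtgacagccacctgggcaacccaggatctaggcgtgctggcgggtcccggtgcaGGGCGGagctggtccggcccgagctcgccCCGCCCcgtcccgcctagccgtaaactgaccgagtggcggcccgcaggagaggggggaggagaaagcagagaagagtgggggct

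The 5 windows differed mostly in their CG dinucleotides. The Itgav window held 24 of them, that of Itga8 23, that of Itgb5 20, that of Itgb8 13 and that of Lama2 1, against a median of 7 over all 32851 promoters in the table. A GC box occurred once in the Itgav window, 3 times in that of Itgb5 and once in that of Lama2. The Itgb8 window held a single CCAAT box, the Lama2 window held a CArG box 39 bases before the start, and none of the motifs was found in the Itga8 window. Over the 23 members with an entry, 11 held a GC box (47.8%, against 35.7% of all promoters), 4 a CCAAT box (17.4% against 37.4%), 3 an AP-1 site (13% against 7.81%) and 2 a CArG box (8.7% against 1.63%). The NF-kB consensus was found for Lamb3 and for no other member (4.35% against 4.51%), and the TATA box in none of the 23 (0% against 13.6%). A member counted if any of its windows matched, while the shares of all promoters count single windows. Itga3, Itgb6 and Lamb3 had more than 1 window. The CArG box of Itgb6 and the AP-1 site and CCAAT box of Itga3 lay in the second window only. These matches describe the letters of the windows only.

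Array medians lay between 55.0 and 66.4 intensity units, and 16.4% to 18.2% of the values of an array were below 0. Genes entered the tests when 3 or more arrays exceeded their own array's 40th percentile, which lay between 29.8 and 37.2 units. That left 14217 genes, among them 26 of the 35 members (20 integrins and 6 laminins). The AcP controls varied most, with a median SD of 0.165 log2 units within the group against 0.0896 to 0.116 in the other 7 groups. Il1rap lay between 111 and 136 and Il2ra, the CD25 gene, between 19.2 and 37.7 as group means on their brightest probe sets, and the probes need not lie in the introduced or deleted stretches, so neither checks a label. The 10 neuronal markers were all measured, and their summed level lay between 38953 and 47448 on all 24 arrays. The 10 astrocyte markers were all measured too (16265 to 24261), so the cultures also held RNA of that type. All 18 arrays of the CD25, AcP and AcPb arms carried 1 array code in their labels (m21B), while 2 AcP+AcPb controls carried m22B and the other AcP+AcPb control and the 3 AcP+AcPb arrays with IL-1b carried m23B. The sources used here do not give what the code stands for, and a difference of AcP+AcPb from another arm cannot be told apart from a difference between codes.

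The 9 members that did not pass the filter were Itgam, Itgb2, Itgb4, Itgb6, Itgb7, Lama1, Lama3, Lama5 and Lamb3. Their group means lay between -55.9 units (Itgb4, AcPb with IL-1b) and 24.3 units (Itgb6, AcP with IL-1b). Itgam and Itgb2 encode the chains of the complement receptor of microglia and neutrophils. Itgam ranged from -10.1 to 24.5 units and Itgb2 from 3.28 to 32.5 units over the 24 arrays. Of the 12 microglia and leukocyte markers, 5 passed the filter: Csf1r (mean 470 units), Laptm5 (127), C1qb (71.0), Cd68 (48.0) and Tyrobp (24.2), of which only Tyrobp was called, higher in unstimulated AcPb than in CD25 (0.79). Of the markers that did not pass, Cx3cr1, Aif1, C1qa and Tmem119 had means below 0. P2ry12 (21.5), Ptprc (16.2) and Fcer1g (12.8) had means above 0. The part of microglia in the member values was not tested. Of 9 endothelial markers on the array 4 passed. Among the rest Pecam1, Cldn5 and Vwf were below 0 on average, and Cdh5 (20.2) and Tek (16.4) above it. At such values low and absent expression look the same.

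The first question was whether IL-1b changed integrin or laminin expression in any arm. It changed none detectably: a gene was called at a limma adjusted p (Benjamini-Hochberg over the 14217 genes of a comparison) under 0.05, and 0 of the 26 tested members was called in the CD25, AcP, AcPb or AcP+AcPb arm. Over all genes 0% were called in CD25, 0.542% in AcP, 0.00703% in AcPb and 0.457% in AcP+AcPb. At an unadjusted p under 0.05 there were 2, 2, 3 and 3 members in the same order, against 6.04%, 8.79%, 11% and 11.1% of all genes. No member changed 2-fold or more in any arm, and the median member change was -0.028, -0.075, -0.0050 and -0.11 log2 units, beside 0.0084, 0.0033, -0.0040 and 0.0053 over all genes. The median member had a 95% interval reaching 0.36 log2 units to each side of its change. The control and IL-1b arrays of a member did not overlap for 2, 3, 7 and 4 of the 26, against 13.7%, 10.6%, 23.1% and 18.2% of all genes.

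**Figure D1:**
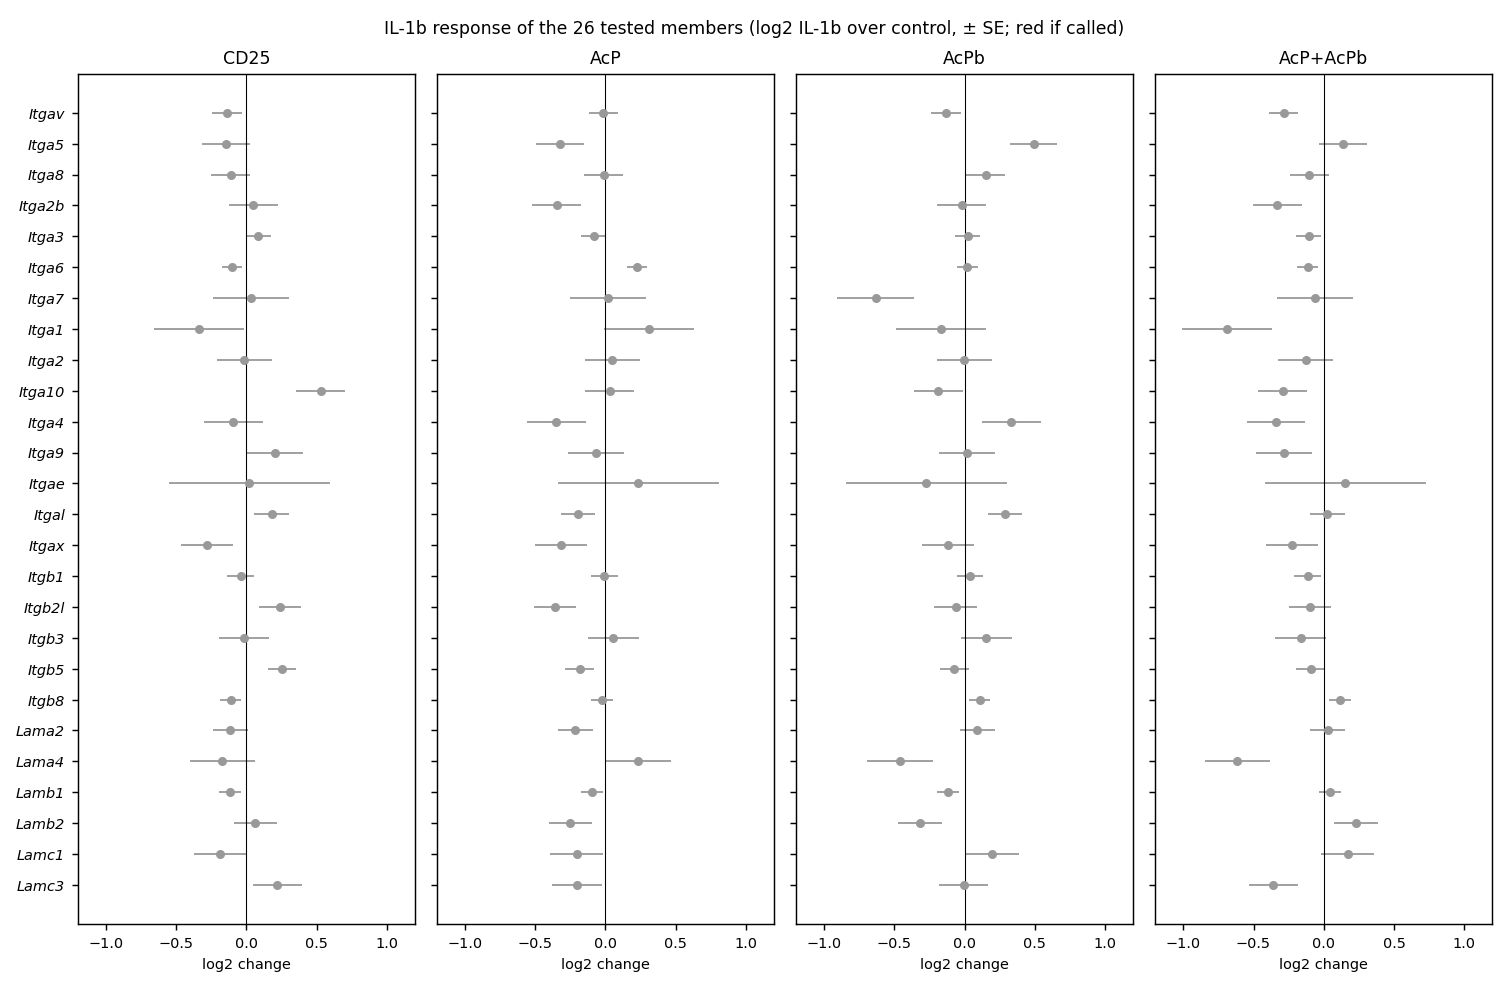
Log2 change with IL-1b against control (x axis, ± SE) of the 26 tested integrin and laminin genes, 1 panel for each receptor arm, 3 arrays against 3. No point is red, since no member was called in any arm; the changes lie between -0.69 (Itga1 in AcP+AcPb) and 0.53 (Itga10 in CD25).

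The members nearest to a response were different ones in each arm. In CD25 neurons Itga10, a collagen-binding alpha chain, read 35.5, 30.2 and 34.2 units in controls and 51.9, 59.2 and 54.3 with IL-1b. The arrays of the 2 groups did not overlap, and the change of 0.53 ± 0.17 (SE) log2 units had a limma adjusted p of 0.809. In AcP neurons Itgb2l, a gene akin to the leukocyte beta 2 chain, read 70.7, 98.5 and 67.3 units in controls and 59.2, 48.2 and 65.1 with IL-1b (-0.36 ± 0.15, limma adjusted p = 0.494). All 3 stimulated arrays lay below the controls.

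Itga6, the laminin-binding alpha 6 chain, read 580.0, 618 and 756 units in AcP controls and 769.9, 737 and 769.8 with IL-1b. Control 3 lay within the range of the stimulated arrays and the other 2 below it. Over all arrays the change was 0.22 ± 0.074 (limma adjusted p = 0.308). Without AcP control 3 it was 0.33, with a limma adjusted p of 0.00812, the only member call that leaving out an array produced among the 4 responses.

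In AcPb neurons Itga5, the alpha chain of the classical fibronectin receptor, read 27.4, 21.5 and 27.3 units in controls and 37.03, 48.95 and 40.9 with IL-1b (0.49 ± 0.17, limma adjusted p = 0.298). The stimulated arrays were all higher, but the gene is dim and close to the filter. Itga7, a laminin-binding alpha chain known from muscle, read 88.98, 60.1 and 69.8 units in AcPb controls and 25.4, 54.5 and 46.9 with IL-1b (-0.63 ± 0.27, limma adjusted p = 0.401). All 3 stimulated arrays lay below the controls. In AcP+AcPb neurons Itgav read 1404, 1409 and 1484 units in controls and 1169, 1192 and 1153 with IL-1b (-0.29 ± 0.10, limma adjusted p = 0.291), again with no overlap. Lama4, the alpha 4 chain of vascular laminins, read 34.1, 45.6 and 32.4 units in those controls and 11.6, 23.1 and 22.5 with IL-1b (-0.62 ± 0.23, limma adjusted p = 0.31). The AcP+AcPb controls span 2 array codes and the stimulated arrays 1.

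The responses of the arms were compared with each other as a difference of differences, and 0 of 26 members was called in any of the 4 comparisons. AcP minus CD25 called 0.246% of all genes, AcPb minus AcP 0.26%, AcP+AcPb minus AcP 0.00703% and AcP+AcPb minus AcPb 0.127%. At an unadjusted p under 0.05 there were 4, 4, 4 and 2 members, against 9.07%, 8.34%, 5.3% and 5.5% of all genes. The smallest member p in AcP minus CD25 belonged to Itga6, with a difference of 0.33 ± 0.10 and a limma adjusted p of 0.327. Without AcP control 3 it was 0.44 with a limma adjusted p of 0.0116. Itga5 had the smallest member p in AcPb minus AcP, at 0.82 ± 0.24 (limma adjusted p = 0.291).

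While no integrin or laminin gene was called, 2 cell-surface ligands of integrins rose with IL-1b in AcP and AcP+AcPb. Icam1, bound by the leukocyte beta 2 integrins, read 22.1, -11.5 and 26.8 units in AcP controls and 269, 333 and 220.0 with IL-1b (3.27 ± 0.30, limma adjusted p = 2.06e-06). In AcP+AcPb it read 56.5, 71.7 and 109 in controls and 191, 301 and 377 with IL-1b (1.67 ± 0.30, limma adjusted p = 0.0113). The stimulated arrays lay above every control of their arm. Vcam1, bound by the alpha 4 beta 1 integrin, read 679, 673 and 778 units in AcP controls and 1025, 1106 and 1073 with IL-1b (0.58 ± 0.078, limma adjusted p = 0.000368). In AcP+AcPb it read 853, 728 and 841 in controls and 1038, 1037 and 1257 with IL-1b (0.45 ± 0.078, limma adjusted p = 0.00932). In AcPb, Icam1 read 9.50, 24.6 and 15.3 in controls and 22.2, 19.1 and 20.9 with IL-1b, and neither gene was called in AcPb or CD25. Of the 15 tested cell-surface ligands these were the 2 called in AcP and in AcP+AcPb, beside 0.542% and 0.457% of all genes. With only the AcP arrays in the fit neither was called (limma adjusted p = 0.0542 for Icam1 and 0.126 for Vcam1). Icam1 was near background in the AcP controls, so the size of its change depends on the 16 units added before the log, and it ran from 2.08 to 4.24 over the alternatives. Both calls in AcP+AcPb were lost when single arrays were left out, such as control 2 (1.63 and 0.38) and IL-1b array 3 (1.47 and 0.36), and within array code m23B (1.24 and 0.39).

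The second question was how the arms differed without IL-1b. Here some integrins and laminins did differ, and among the called members more were lower than higher in the arms other than CD25, while the median over all tested members lay above 0. Of 26 tested members 2 were called higher and 7 lower in AcP than in CD25 (9 in all, with 15.5% of all genes called), 1 higher and 5 lower in AcPb (6 in all, 7.62% of all genes), and 3 higher and 6 lower in AcP+AcPb (9 in all, 18.7% of all genes). By direction 6.86% of all genes were higher and 8.68% lower in AcP, 2.36% and 5.25% in AcPb, and 6.81% and 11.9% in AcP+AcPb. The median member change was 0.050, 0.012 and 0.034, beside 0.013, 0.00074 and -0.018 over all genes. The arrays of the 2 groups did not overlap for 14, 10 and 13 members, against 28.1%, 32.7% and 40.2% of all genes. The 3 comparisons share the 3 CD25 controls, so a gene's values in them are not independent. In RNA of whole cultures, fewer cells of a type and less RNA per cell cannot be told apart. The counts of called members include Itga1, lower in AcP, and Itga4, higher in AcP+AcPb. Both are dim, passed the filter mainly through groups where they read high, and are counted as a description only. With only the arrays of the groups compared in the fit, 2 members were called in AcP, Itgav and Itga1, and no AcP array took Itga1 through the filter. In AcP+AcPb, a block for the array code sets the 2 controls of code m22B aside. The control mean then rests on the single control of code m23B, so no count is given for that fit. Codes m23B and m21B stay unadjusted in it.

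**Figure D2:**
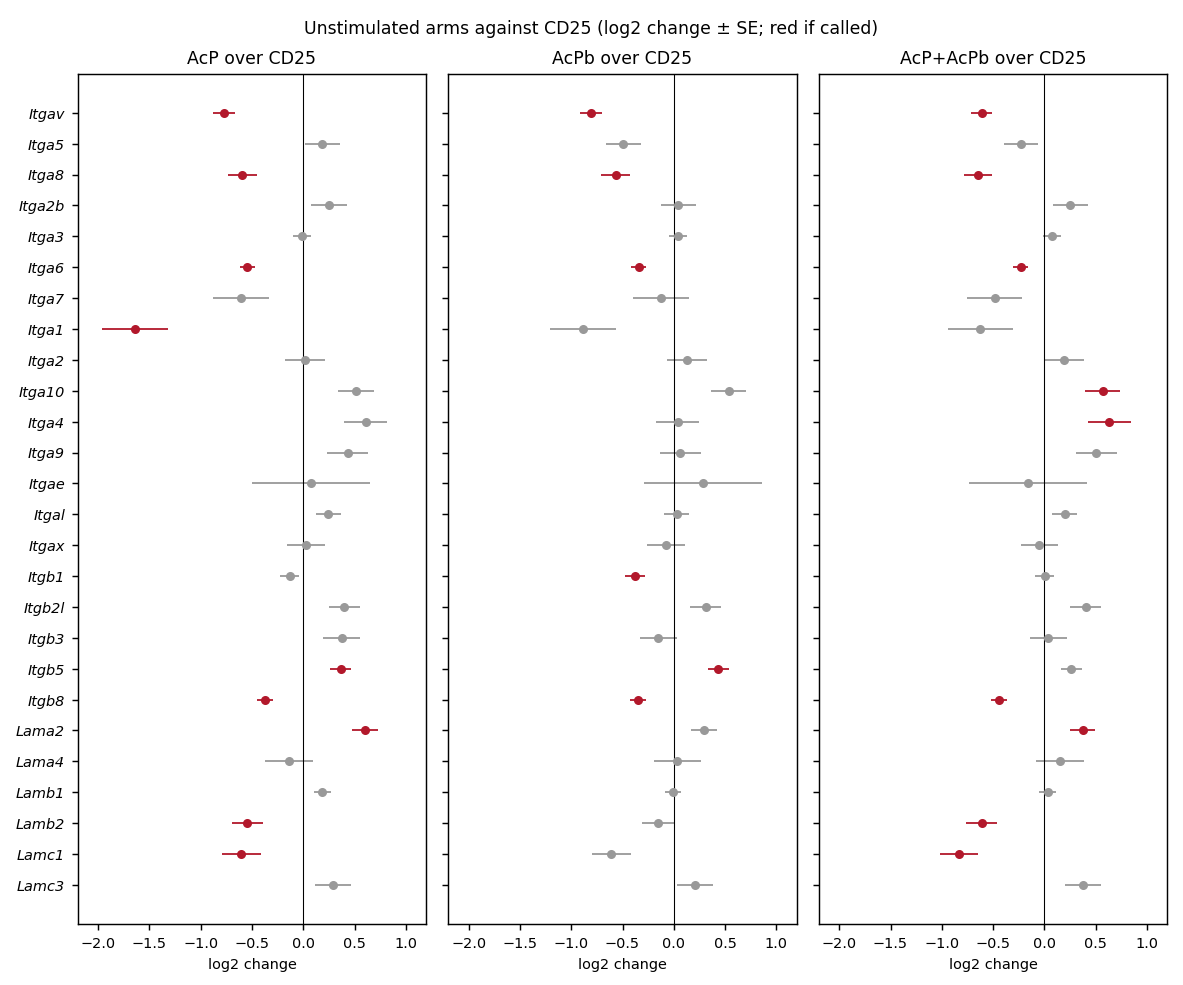
Log2 difference of each unstimulated arm from unstimulated CD25 (x axis, ± SE) for the 26 tested members, 3 arrays against 3; red marks a limma adjusted p under 0.05. Itgav, Itga8, Itga6 and Itgb8 are red and left of 0 in each panel, and the panels share the CD25 controls.

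Among the RGD-binding alpha chains Itgav and Itga8 were lower in every arm than in CD25. Itgav, which pairs with several beta chains, read 2066, 2186 and 2343 units in CD25 controls, 1302, 1241 and 1293 in AcP, 1325, 1208 and 1213 in AcPb and 1404, 1409 and 1484 in AcP+AcPb. Every CD25 control lay above every other control. The difference from CD25 was -0.77 ± 0.10 in AcP (limma adjusted p = 5.33e-05), -0.81 ± 0.10 in AcPb (limma adjusted p = 7.35e-05) and -0.61 ± 0.10 in AcP+AcPb (limma adjusted p = 0.000593). Itgav passed in AcP and AcPb under all 17 alternatives each. In AcP+AcPb its call was lost under 1 of 20 alternatives, and the difference was -0.56 with the single control of code m23B. Of the 4 other Itgav probe sets, with means of -23.1 to 57.3 units, none was called.

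Itga8, whose chain pairs with beta 1 and binds nephronectin, read 153, 183 and 178 units in CD25 controls, 97.2, 125 and 103 in AcP, 108, 114 and 108 in AcPb and 77.3, 131 and 108 in AcP+AcPb. Again no other control reached a CD25 control. The differences were -0.59 ± 0.14 (limma adjusted p = 0.00685), -0.57 ± 0.14 (0.0164) and -0.64 ± 0.14 (0.0034) in that order. The AcPb call was lost without CD25 control 2 or 3 or AcPb control 1 or 3 (limma adjusted p = 0.057 to 0.07). Itga5 and Itga2b, the platelet alpha IIb chain, were not called: Itga5 differed by 0.19 ± 0.17, -0.49 ± 0.17 and -0.23 ± 0.17, and Itga2b by 0.25 ± 0.17, 0.045 ± 0.17 and 0.25 ± 0.17.

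The beta chains that pair with alpha v moved in both directions. Itgb8, whose alpha v beta 8 integrin is known to activate latent TGF-beta in the brain, read 1483, 1465 and 1595 units in CD25 controls, 1209.8, 1024 and 1279 in AcP, 1178, 1185 and 1189.6 in AcPb and 1204, 1013 and 1114 in AcP+AcPb. All CD25 controls were above the rest. The differences were -0.37 ± 0.077 (limma adjusted p = 0.00279), -0.35 ± 0.077 (0.00819) and -0.44 ± 0.077 (0.000641). Itgb5, another partner of alpha v, read 578, 502 and 645 units in CD25 controls, 829, 684 and 721 in AcP, 764, 832 and 744 in AcPb and 729, 649 and 694 in AcP+AcPb. Here each CD25 control lay below the rest, and the differences were 0.37 ± 0.10 (0.0213), 0.44 ± 0.10 (0.013) and 0.26 ± 0.10 (0.0807), the last not called. The Itgb5 calls were lost without single arrays, CD25 control 2 in both arms among them (0.27 in AcP, limma adjusted p = 0.11, and 0.34 in AcPb, 0.08). A second Itgb5 probe set of nearly the same mean gave 0.37, 0.35 and 0.33, and a dimmer one with a mean of 149 units gave 0.044, 0.28 and -0.0097. Itgb3 was not called (0.38 ± 0.18, -0.15 ± 0.18 and 0.037 ± 0.18).

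Of the laminin-binding chains Itga6 was lower and Itga3 was not called. Itga6 read 933, 920.5 and 1006 units in CD25 controls, 580.0, 618 and 756 in AcP, 770.3, 718 and 755 in AcPb and 812, 777 and 840.5 in AcP+AcPb. The 3 CD25 controls were highest, and AcP control 3 stood well above the other 2 AcP arrays. The differences were -0.55 ± 0.074 (limma adjusted p = 5.33e-05), -0.34 ± 0.074 (0.00706) and -0.23 ± 0.074 (0.0371). The AcP+AcPb call was lost under 9 of 20 alternatives, such as leaving out CD25 control 3 (-0.19, limma adjusted p = 0.14). A dimmer second Itga6 probe set gave -0.75, -0.59 and -0.44, called in AcP alone.

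Itga3 read 214, 245 and 231 units in CD25 controls, 259, 223 and 203 in AcP, 237, 240.3 and 234 in AcPb and 253, 251 and 226 in AcP+AcPb. The groups overlapped, with differences of -0.011 ± 0.088, 0.044 ± 0.088 and 0.078 ± 0.088 (limma adjusted p = 0.95, 0.824 and 0.573). Its 95% interval ran from -0.20 to 0.17 in AcP. Itga7 read 82.02, 80.5 and 77.8 in CD25 controls, 65.6, 71.4 and 19.4 in AcP, 88.98, 60.1 and 69.8 in AcPb and 52.4, 53.9 and 51.6 in AcP+AcPb and was not called, the AcP difference of -0.60 ± 0.27 coming with a value in AcP control 3 far below the other 2.

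Itgb1, the common beta chain of laminin, collagen and fibronectin receptors, gave different answers on different probe sets. On its brightest it read 669, 609 and 743 units in CD25 controls, 546, 697 and 599 in AcP, 514, 529.7 and 496 in AcPb and 665, 705 and 649.9 in AcP+AcPb. The AcPb controls lay below all CD25 controls (-0.38 ± 0.094, limma adjusted p = 0.0181), while AcP and AcP+AcPb overlapped CD25 (-0.13 ± 0.094 and 0.0029 ± 0.094). The AcPb call was lost without CD25 control 3 (-0.31, limma adjusted p = 0.1) and without AcPb control 1 or 3. A second Itgb1 probe set with a mean of 426 units gave -0.33, -0.38 and -0.25 and was called lower in each arm when all 34945 probe sets with 1 symbol were tested. A dimmer one with a mean of 58.3 units was called in AcP+AcPb alone (-0.57).

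The collagen-binding alpha chains were dim. Itga1 read 35.4, 44.7 and 58.4 units in CD25 controls, 7.61, -8.74 and 4.32 in AcP, 26.7, 6.32 and 22.5 in AcPb and 30.1, 11.4 and 34.1 in AcP+AcPb. Each CD25 control was above every other control, and AcP lay near 0. The AcP difference of -1.64 ± 0.32 (limma adjusted p = 0.00165) depends on the 16 units added before the log and is no measure of fold, and its size ran from -2.45 to -0.69 over the alternatives. Itga1 passed the filter on 5 arrays, the 3 CD25 controls, 1 CD25 array with IL-1b and 1 AcP+AcPb control, so without its high CD25 values it would not have been tested, and its call in AcP is a description and no support for a difference. Itga1 was not called in AcPb (-0.89 ± 0.32) or AcP+AcPb (-0.62 ± 0.32). Itga10 read 35.5, 30.2 and 34.2 in CD25 controls, 40.1, 83.03 and 46.5 in AcP, 59.98, 55.9 and 50.6 in AcPb and 49.2, 80.1 and 46.1 in AcP+AcPb. It was above CD25 on every array and called in AcP+AcPb alone (0.57 ± 0.17, limma adjusted p = 0.029), a call lost without AcP+AcPb control 2 (0.37, limma adjusted p = 0.18). Itga2 was not called (0.020 ± 0.20, 0.13 ± 0.20 and 0.19 ± 0.20).

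Itga4, whose chain binds Vcam1, was at the edge of detection. It read 28.8, 16.6 and 19.3 units in CD25 controls, 47.03, 41.5 and 34.4 in AcP, 22.9, 20.4 and 23.5 in AcPb and 38.3, 34.8 and 53.8 in AcP+AcPb. The AcP+AcPb difference of 0.63 ± 0.21 was called (limma adjusted p = 0.0411) and lost under 13 of 18 alternatives. Itga4 passed the filter on 8 arrays, 0 of them CD25 arrays, so its call is likewise a description and no support for a difference. Its close relative Itga9 was not called (0.43 ± 0.20, 0.064 ± 0.20 and 0.51 ± 0.20). Nor were the leukocyte chains Itgae, Itgal and Itgax and the beta chain Itgb2l, whose differences over the 3 arms lay between -0.16 and 0.40.

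Among the laminin chains Lamc1 and Lamb2 were lower and Lama2 higher in AcP and AcP+AcPb than in CD25. Lamc1, the gamma chain of most laminins, read 271, 245 and 257 units in CD25 controls, 172, 131 and 194 in AcP, 143, 188 and 161 in AcPb and 154, 125 and 135 in AcP+AcPb. No control of another arm reached a CD25 control. The differences were -0.60 ± 0.19 (limma adjusted p = 0.0366), -0.61 ± 0.19 (0.0564, not called) and -0.83 ± 0.19 (0.00475). The AcP call was lost without any single CD25 control (limma adjusted p = 0.066 to 0.10) or without AcP control 1 or 2. Lamb2, the beta 2 chain of synaptic and vascular laminins, read 52.02, 61.99 and 75.1 units in CD25 controls, 49.2, 24.9 and 42.5 in AcP, 53.8, 52.3 and 57.5 in AcPb and 37.9, 28.4 and 40.7 in AcP+AcPb. AcP and AcP+AcPb lay below CD25 without overlap (-0.54 ± 0.15, 0.0222, and -0.61 ± 0.15, 0.00982), and AcPb overlapped it (-0.15 ± 0.15, 0.618). The AcP call was lost without CD25 control 2 or 3 or AcP control 2 (-0.35, limma adjusted p = 0.13). The AcP+AcPb call was lost without CD25 control 3 or AcP+AcPb control 2 (-0.50 each). With the single AcP+AcPb control of code m23B the difference was -0.47.

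Lama2, the alpha 2 chain known from muscle and glial basement membranes, read 95.03, 72.8 and 70.4 units in CD25 controls, 143, 125 and 117 in AcP, 112, 108 and 83.00 in AcPb and 121, 108 and 93.3 in AcP+AcPb. Every AcP control lay above CD25, while 1 AcPb and 1 AcP+AcPb control fell below the first CD25 control. The differences were 0.60 ± 0.12 (limma adjusted p = 0.00274), 0.29 ± 0.12 (0.173, not called) and 0.37 ± 0.12 (0.0439), the last lost under 11 of 20 alternatives, among them without CD25 control 3 (0.31, 0.16). Lamb1, the beta 1 chain, read 206, 179 and 184 units in CD25 controls, 219.9, 199.9 and 235 in AcP, 178, 197 and 191 in AcPb and 216, 170.1 and 198 in AcP+AcPb. Those groups overlapped and none was called (0.19 ± 0.079, -0.0057 ± 0.079 and 0.031 ± 0.079). Lama4 and Lamc3 were dim and not called, with differences between -0.14 and 0.38 over the 3 arms.

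**Figure D3:**
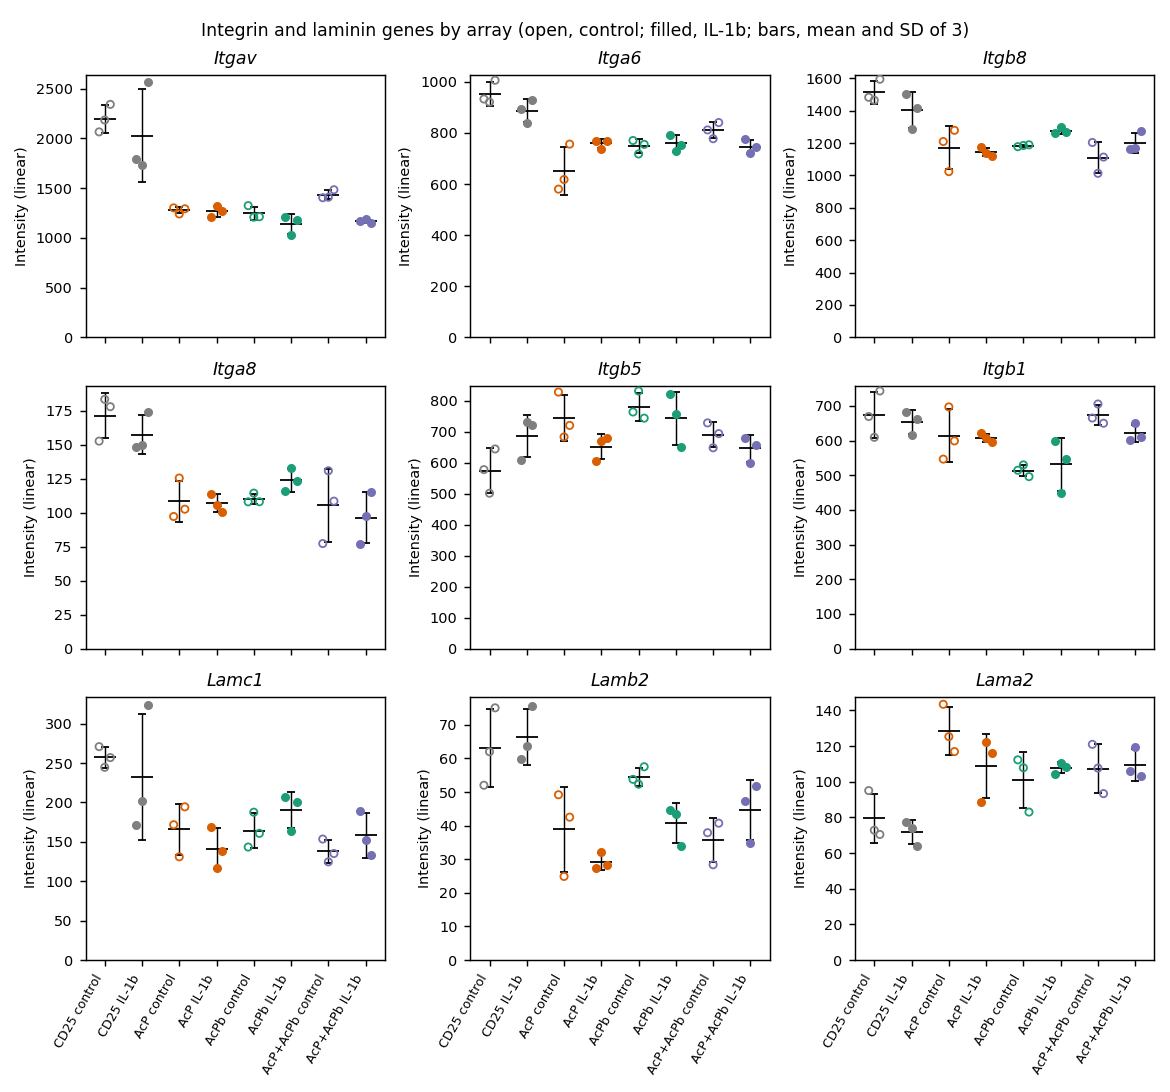
Intensity (y axis, linear units from 0) of 9 members on each of the 24 arrays, by group; open points are controls, filled points IL-1b, and bars the mean ± SD of 3. Itgav, Itga6, Itgb8, Itga8, Lamc1 and Lamb2 are highest in the CD25 groups by mean, Lama2 is lowest there, and CD25 array 3 with IL-1b is high for Itgav and Lamc1.

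The same arms were also compared on the arrays with IL-1b, a comparison added after the unstimulated values were known. These are other arrays, although the 3 comparisons again share their CD25 arrays. In AcP 1 member was called higher and 5 lower (6 of 26, with 11.5% of all genes called), in AcPb 1 higher and 1 lower (2, 3.62% of all genes) and in AcP+AcPb 1 higher and 3 lower (4, 12.8% of all genes). By direction 5.3% of all genes were higher and 6.18% lower in AcP, 0.837% and 2.78% in AcPb, and 4.47% and 8.34% in AcP+AcPb. In AcP, 6 members were called on both sets of arrays, 66.7% of the 9 called in controls and 100% of the 6 called with IL-1b: Itgav, Itga8, Itgb8, Lama2, Lamb2 and Lamc1. Over all genes 1009 were called on both sets in AcP, 45.7% of those called in controls and 61.8% of those called with IL-1b. In AcPb the member called on both was Itgav, 16.7% of 6 and 50% of 2, beside 29.9% and 63.0% over all genes. In AcP+AcPb these were Itgav, Itga6, Itga8 and Lama2, 44.4% of 9 and 100% of 4, beside 39.7% and 58.1% over all genes.

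Itgav read 1790.2, 1730.4 and 2566 units in CD25 with IL-1b, 1209, 1323 and 1267 in AcP, 1213, 1029 and 1177 in AcPb and 1169, 1192 and 1153 in AcP+AcPb. CD25 was again highest on every array, with array 3 well above the other 2. The differences were -0.65 ± 0.10 (limma adjusted p = 0.000431), -0.80 ± 0.10 (0.00019) and -0.76 ± 0.10 (0.000121). Without that CD25 array the AcP difference was -0.47 and was still called. Itga8 read 148, 149 and 174 units in CD25, 114, 106 and 101 in AcP, 116, 133 and 123 in AcPb and 76.9, 97.3 and 115 in AcP+AcPb. All 9 arrays of the other arms lay below the CD25 arrays, and the differences were -0.49 ± 0.14 (0.0263), -0.31 ± 0.14 (0.274, not called) and -0.63 ± 0.14 (0.00541).

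Lama2 read 77.3, 73.8 and 64.1 units in CD25 with IL-1b, 88.6, 123 and 116 in AcP, 105, 111 and 109 in AcPb and 106, 119 and 103 in AcP+AcPb. All 9 arrays of the other arms lay above the CD25 arrays, by 0.50 ± 0.12 (limma adjusted p = 0.0129), 0.50 ± 0.12 (0.0296) and 0.52 ± 0.12 (0.0107). The calls in all 3 were lost without CD25 array 3 (0.44 to 0.45, limma adjusted p = 0.058 to 0.14). Lamb2 read 59.7, 63.6 and 75.7 in CD25, 27.3, 32.2 and 28.2 in AcP, 44.8, 43.5 and 34.02 in AcPb and 47.3, 34.8 and 51.9 in AcP+AcPb, with differences of -0.86 ± 0.15 (0.00107), -0.54 ± 0.15 (0.0612) and -0.45 ± 0.15 (0.0644). Only the AcP difference was called.

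Other members held less well on these arrays. Itgb8 read 1505, 1284 and 1416 units in CD25, 1175, 1138 and 1123 in AcP, 1261, 1299 and 1268 in AcPb and 1161, 1169 and 1273 in AcP+AcPb, and was called in AcP alone (-0.28 ± 0.077, limma adjusted p = 0.0213; -0.13 ± 0.077 and -0.22 ± 0.077 elsewhere). Itga6 read 894, 839 and 927 in CD25, 769.9, 737 and 769.8 in AcP, 793, 731 and 752 in AcPb and 776, 721 and 743 in AcP+AcPb. All other arrays were below CD25, yet only AcP+AcPb was called (-0.24 ± 0.074, 0.0384), and not without CD25 array 3 (-0.21, limma adjusted p = 0.15). Lamc1 read 172, 201 and 323 units in CD25, where array 3 stood far above the other 2, and 169, 117 and 138 in AcP. The AcP difference of -0.62 ± 0.19 (0.0391) fell to -0.37 (0.22) without that array. Lamc1 read 207, 164 and 201 in AcPb and 189, 152 and 133 in AcP+AcPb and was not called there (-0.22 ± 0.19 and -0.48 ± 0.19).

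Itgb5 was not called with IL-1b: it read 609, 731 and 724 units in CD25, 606, 670.0 and 682 in AcP, 821, 758 and 652 in AcPb and 682, 599.6 and 658 in AcP+AcPb, and its differences were -0.071 ± 0.10, 0.11 ± 0.10 and -0.085 ± 0.10, none called. The AcP and AcP+AcPb values had the opposite sign to those in controls. Itgb1 read 681, 616 and 663 in CD25 and 599, 449 and 546 in AcPb, a difference of -0.30 ± 0.094 (limma adjusted p = 0.0904). Itga1 read 27.3, 25.4 and 48.2 in CD25 and 2.42, 17.4 and 7.66 in AcP, without overlap (-0.99 ± 0.32, limma adjusted p = 0.0516), and Itga10 no longer differed in AcP+AcPb (-0.25 ± 0.17). 

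Itga4, Itga3, Lamb1, Itgb1, Itga10 and Itga1 complete the values on stimulated arrays, and none of these 6 was called there. Itga4 read 31.04, 19.9 and 9.24 units in CD25 with IL-1b, 37.4, 22.1 and 27.6 in AcP, 44.8, 25.96 and 27.7 in AcPb and 22.7, 40.3 and 27.8 in AcP+AcPb (0.39 ± 0.21 in the last, limma adjusted p = 0.251). Itga3 read 243, 217 and 277 in CD25, 206, 204 and 233 in AcP, 244, 230.1 and 249 in AcPb and 239, 212 and 223 in AcP+AcPb. Every arm overlapped CD25 for both genes. Lamb1 read 167, 178 and 175 in CD25, 204, 216 and 189.8 in AcP, 166, 181 and 171 in AcPb and 201, 212 and 188 in AcP+AcPb, where AcP and AcP+AcPb lay above CD25 on every array without a call (0.21 ± 0.079, 0.104, and 0.19 ± 0.079, 0.126). Itgb1 read 621, 606 and 596 in AcP and 603, 649 and 609 in AcP+AcPb, below the highest CD25 array. Itga10 read 50.8, 52.6 and 64.7 in AcP, 46.2, 48.8 and 45.2 in AcPb and 37.2, 41.2 and 53.4 in AcP+AcPb. AcP and AcP+AcPb overlapped CD25 and AcPb lay below it, unlike in controls. Itga1 read 19.8, 5.37 and 17.8 in AcPb and 14.4, 0.51 and 14.3 in AcP+AcPb, below the CD25 arrays (-0.97 ± 0.32 in the latter, limma adjusted p = 0.0527).

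The dim chains Itga5, Itga7, Itgb2l, Lama4 and Itgb3 are described over all 8 groups. Itga5 read 31.2, 52.2 and 44.9 units in CD25 controls, 49.2, 31.5 and 30.8 in CD25 with IL-1b, 32.9, 48.97 and 30.1 in AcP with IL-1b, and 24.99, 47.8 and 30.7 and 37.7, 35.99 and 42.01 in AcP+AcPb without and with it. Only the AcPb controls lay below every CD25 control. Itga7 read 94.2, 57.3 and 102 in CD25 with IL-1b, 65.1, 38.8 and 43.3 in AcP with IL-1b and 47.8, 47.3 and 54.05 in AcP+AcPb with IL-1b, so the CD25 groups held its highest values. Itgb2l read 51.8, 61.6 and 52.02 in CD25 controls, 56.8, 82.1 and 66.5 in CD25 with IL-1b, 82.3, 57.4 and 79.01 and 69.96, 67.8 and 67.2 in AcPb, and 81.8, 82.00 and 70.4 and 79.7, 84.4 and 54.4 in AcP+AcPb. Among controls AcP and AcP+AcPb lay above CD25, without a call (0.40 ± 0.15, limma adjusted p = 0.0793, and 0.40 ± 0.15, 0.0695). Lama4 read 23.5, 40.7 and 32.95 in CD25 controls, 22.4, 22.9 and 35.4 in CD25 with IL-1b, 26.3, 26.5 and 30.02 and 45.2, 37.1 and 25.3 in AcP, and 49.3, 23.3 and 30.03 and 9.90, 35.5 and 18.1 in AcPb. Itgb3 read 18.3, 20.7 and 35.1 in CD25 controls, 23.1, 23.1 and 24.6 in CD25 with IL-1b, 35.5, 45.3 and 34.2 in AcP with IL-1b, 32.1, 14.7 and 28.1 in AcPb with IL-1b, and 31.3, 29.8 and 16.1 and 24.8, 19.3 and 18.3 in AcP+AcPb. Every arm overlapped CD25 for Lama4, while Itgb3 with IL-1b was above CD25 on every AcP array (0.45 ± 0.18, limma adjusted p = 0.123). Itgb3 passed the filter on 7 arrays, among them 3 AcP controls and 3 AcP arrays with IL-1b, so that difference is a description only.

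**Figure D4:**
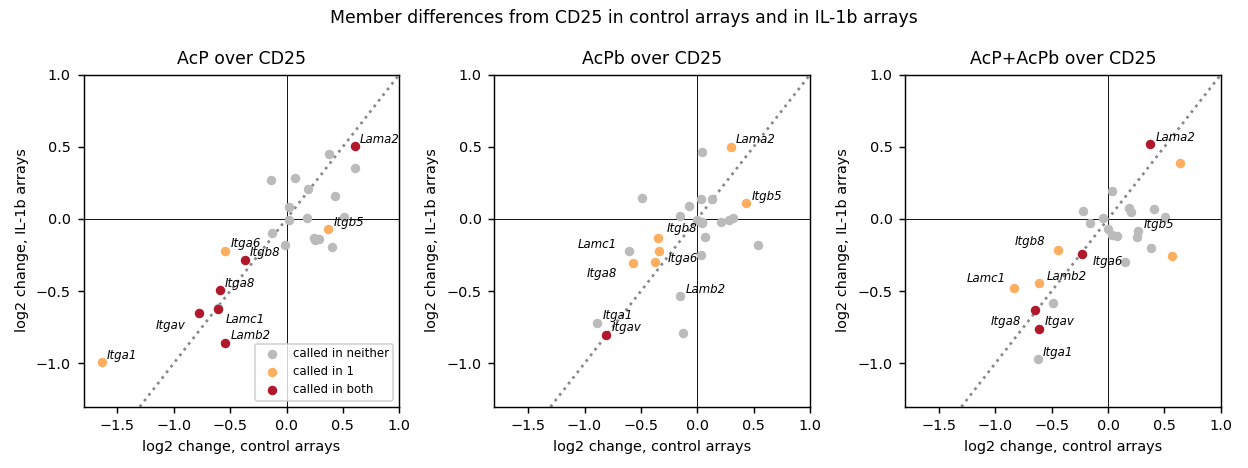
Log2 difference from CD25 on control arrays (x axis) and on IL-1b arrays (y axis) for the 26 tested members, 1 panel per arm; the dotted line marks equal values, red points were called on both, orange on 1. Itgav lies at lower left in each panel and Lama2 at upper right, while Itgb5 is right of 0 and within 0.11 of 0 on the y axis.

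Between the other arms no member was called. Unstimulated AcPb against AcP called 0 of 26 members (0.971% of all genes) and AcP+AcPb against AcP 0 of 26 (0.239%). At an unadjusted p under 0.05 there were 9 and 3 members, against 12.4% and 11.5% of all genes. Both share the AcP controls. Nearest in AcPb was Itga5, at 51.6, 50.7 and 47.9 units in AcP controls and 27.4, 21.5 and 27.3 in AcPb (-0.68 ± 0.17, limma adjusted p = 0.0631), with all AcPb arrays lower. Itgb3, the partner of alpha v and alpha IIb, read 32.4, 40.7 and 35.3 in AcP and 14.3, 26.2 and 20.96 in AcPb (-0.52 ± 0.18, 0.211). Itga4 differed by -0.57 ± 0.21 (0.249). For Itgb3 and Itga4, 3 AcP controls and 0 AcPb controls exceeded the filter level, so these values are a description only. Against AcP, the AcP+AcPb controls were higher for Itga6 (0.32 ± 0.074, 0.101) on every array. Without AcP control 3, Itga6 was called in both comparisons (0.31, limma adjusted p = 0.0141, and 0.43, 0.00240). A test of any difference among the 8 groups called 9 of the 26 members (34.6%, against 24.5% of all genes): Itga1, Itga6, Itga8, Itgav, Itgb1, Itgb8, Lama2, Lamb2 and Lamc1. Since Itga1 passed the filter mainly on CD25 arrays, where it is high, its call is a description and no support for a difference.

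The ligands of these receptors were read from lists of matrix proteins, intracellular adaptors, other laminin receptors and cell-surface ligands. Of 24 tested matrix and basement membrane genes, 9 were called lower and 2 higher in unstimulated AcP than in CD25, 8 and 2 in AcPb, and 11 and 2 in AcP+AcPb, with median changes of -0.22, -0.25 and -0.34, beside the shares and medians over all genes given earlier. Fn1, fibronectin, had group means of 808 ± 233 units in CD25 controls, 222 ± 39.8 in AcP, 293 ± 7.79 in AcPb and 256 ± 33.3 in AcP+AcPb (SD, n = 3). The differences were -1.76 ± 0.26, -1.37 ± 0.26 and -1.56 ± 0.26 (limma adjusted p = 0.000145, 0.00279 and 0.000492). Nid2, which links laminin to collagen IV, was lower too (-1.27 ± 0.19, -1.05 ± 0.19 and -1.13 ± 0.19), as were Nid1 (-0.99 ± 0.16, -0.76 ± 0.16 and -0.96 ± 0.16) and, in AcP and AcP+AcPb, the integrin ligand Ccn1 (-1.61 ± 0.27 and -1.45 ± 0.27). Mfge8, an RGD protein that alpha v integrins bind, went the other way, with 861 ± 159 units in CD25 controls against 2007 ± 177 in AcP, 2042 ± 37.2 in AcPb and 1441 ± 237 in AcP+AcPb (1.22 ± 0.14, 1.25 ± 0.14 and 0.74 ± 0.14). Npnt, nephronectin, the ligand of alpha 8 beta 1, named after its values were seen, was higher in each arm (0.57 ± 0.097, 0.56 ± 0.097 and 0.66 ± 0.097). With IL-1b the only matrix gene called was Vcan, versican, in AcP (-0.31 ± 0.063, limma adjusted p = 0.0282), a call lost under 8 of 17 alternatives (limma adjusted p from 0.00993 to 0.558).

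Of 29 tested adaptor and signalling genes, 6 were called lower and 0 higher in AcP, 4 and 0 in AcPb, and 9 and 1 in AcP+AcPb, with median changes of -0.046, -0.087 and -0.15. Of all genes, 8.68% were lower and 6.86% higher in AcP, 5.25% and 2.36% in AcPb, and 11.9% and 6.81% in AcP+AcPb. These shares apply to the unstimulated counts of the other lists too. Whether a list exceeded them was not tested. Flna, filamin A, which binds beta chain tails, was lower in each (-0.49 ± 0.11, -0.45 ± 0.11 and -0.65 ± 0.11), Dock1 in AcP and AcP+AcPb (-0.58 ± 0.13 and -0.50 ± 0.13), and Parva, parvin alpha, in AcPb and AcP+AcPb (-0.57 ± 0.17 and -0.55 ± 0.17). Of 16 other laminin receptors and integrin partners, 5, 3 and 7 were called lower and none higher, with medians of -0.052, -0.044 and -0.18. Cd151, the tetraspanin that binds laminin-binding integrins, read 1518 ± 68.3 units in CD25 controls and 809.8 ± 17.4, 872 ± 48.01 and 927 ± 45.96 in the other arms (-0.89 ± 0.074, -0.79 ± 0.074 and -0.70 ± 0.074). Cd9, another tetraspanin (-1.39 ± 0.14, -1.10 ± 0.14 and -0.81 ± 0.14), and the syndecan Sdc4 (-1.03 ± 0.15, -0.95 ± 0.15 and -0.85 ± 0.15) were lower as well. Of the 15 cell-surface ligands, 3 were higher and 4 lower in AcP, 0 and 3 in AcPb, and 1 and 4 in AcP+AcPb, with medians of -0.10, -0.12 and -0.13. Icam1 read 204, 197 and 217 units in CD25 controls, far above the AcP and AcPb controls given earlier (-2.90 ± 0.30 and -2.80 ± 0.30). With those controls near background these sizes are no measure of fold, and they ran from -3.85 to -1.76 and from -3.42 to -1.75 over the alternatives. Vcam1 read 1154, 1094 and 1143 (-0.66 ± 0.078, -0.60 ± 0.078 and -0.48 ± 0.078). Thy1, a neuronal surface protein that integrins of astrocytes bind, was higher in AcP (0.48 ± 0.056) and AcP+AcPb (0.34 ± 0.056), and the junction protein Jam2 was lower in AcP+AcPb (-0.50 ± 0.085). Between the arms without CD25, Thy1 was lower in AcPb than in AcP (-0.53 ± 0.056), and Jam2 (-0.58 ± 0.085) and Vcan (-0.35 ± 0.063) were lower and Icam1 higher (1.64 ± 0.30) in AcP+AcPb than in AcP. These 3 calls were lost under 5, 10 and 8 of 20 alternatives in the same order, and the values ran from -0.65 to -0.28 for Jam2, -0.45 to -0.32 for Vcan and 0.83 to 2.43 for Icam1. On the arrays with IL-1b, 11 matrix genes were called lower and 2 higher in AcP than in CD25, 1 and 1 in AcPb, and 9 and 1 in AcP+AcPb. Of all genes on these arrays, 6.18% were lower and 5.3% higher in AcP, 2.78% and 0.837% in AcPb, and 8.34% and 4.47% in AcP+AcPb. Fn1 was lower there as well (-1.69 ± 0.26, -1.17 ± 0.26 and -1.63 ± 0.26), Flna too (-0.64 ± 0.11, -0.48 ± 0.11 and -0.75 ± 0.11), and Mfge8 higher (0.90 ± 0.14, 1.09 ± 0.14 and 0.90 ± 0.14). Of the calls in unstimulated AcP+AcPb against CD25, those of Ccn1, Cd9 and Sdc4 were lost under 2 of 20 alternatives each. Those of Dock1 and Icam1 were lost under 3 each and that of Parva under 7. No adaptor and no other laminin receptor or partner was called in any of the 4 IL-1b responses or their differences.

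Some markers of other cell types also differed between CD25 and the other arms in the same comparisons. Of all genes, 15.5% were called in AcP, 7.62% in AcPb and 18.7% in AcP+AcPb without IL-1b. The summed level of the 10 mural and fibroblast markers, all measured, was 2988 to 4157 units in CD25 controls, 1272 to 1513 in AcP, 1495 to 1804 in AcPb and 1400 to 1841 in AcP+AcPb. Of the 10, 5 were called lower in AcP, 3 in AcPb and 5 in AcP+AcPb, among them Tagln, transgelin (-4.02, -3.13 and -2.58), and Acta2, smooth muscle actin (-1.42, -1.04 and -1.06). Acta2 and Tagln had the highest means of the list (1057 and 366 units) and weigh most in its sum. Not all markers fell: without a call, Dcn differed by 0.45, 0.0025 and 0.25, Pdgfrb by 0.16, 0.48 and -0.19, and Lum by 0.071, 0.013 and -0.32. The 9 measured progenitor and dividing-cell markers summed to 10954 to 11770 units in CD25 controls, 5629 to 6896 in AcP, 7221 to 7705 in AcPb and 6165 to 7309 in AcP+AcPb. Vim, vimentin, fell by 1.11, 0.81 and 0.83, and 5, 4 and 6 of the 9 were called lower and Hes5 higher. The astrocyte list moved both ways, with 4 called higher and 3 lower in AcP, 0 and 2 in AcPb, and 3 and 1 in AcP+AcPb. Gfap was lower in AcP (-1.98) and AcPb (-1.73) and not called in AcP+AcPb (-0.49). Aldh1l1 was lower in each (-0.41, -0.36 and -0.35) and Aqp4 in AcP (-0.67). Slc1a2 (0.67 and 0.55), Aldoc (0.50 and 0.45) and S100b (0.49 and 0.52) were higher in AcP and AcP+AcPb, and Fgfr3 in AcP (0.35). Neuronal markers summed to 39727 to 42329 units in CD25 controls and 41078 to 47448 in the other controls. Of the 10, 2 were called higher in AcP, Syt1 (0.21) and Syn1 (0.28), and 0 in AcPb and AcP+AcPb. Of the 9 oligodendrocyte lineage markers on the array 8 passed the filter. Olig1 was higher in AcP (0.56) and AcPb (0.45), and Mbp, myelin basic protein, was lower in AcP+AcPb (-1.70). With IL-1b the mural and fibroblast list summed to 2705 to 4159 units in CD25, 1342 to 1587 in AcP, 1868 to 2624 in AcPb and 1427 to 1990 in AcP+AcPb. There 5 of its 10 markers were called lower in AcP and 7 in AcP+AcPb, against 0 lower and 1 higher in AcPb. The shares of all genes were 6.18% lower in AcP, 8.34% lower in AcP+AcPb, and 2.78% lower and 0.837% higher in AcPb. The part of these cell types in the integrin and laminin differences was not tested.

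**Figure D5:**
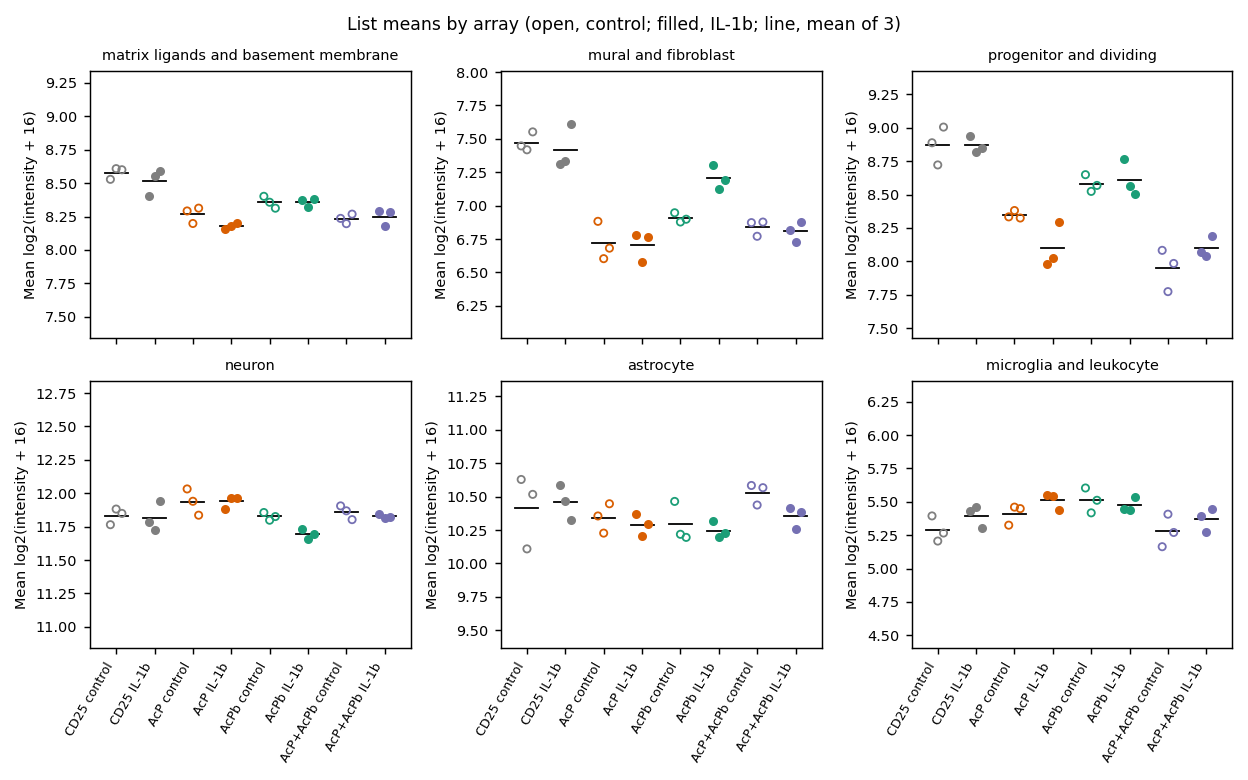
Mean log2(intensity + 16) over the genes of 6 lists found on the array (y axes differ in range and do not start at 0), by array and group. Open points are controls, filled points IL-1b, lines the mean of 3. The microglia and leukocyte panel averages 12 genes, of which 5 passed the filter. The matrix, mural and progenitor lists are highest in the CD25 groups by mean, from 8.52 to 8.58 against 8.18 to 8.36 elsewhere for the matrix list.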

How the data were processed

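The 24 RNA samples were hybridised to 24 one-colour mouse expression arrays, 3 for each of 8 groups. The deposited values are the authors' processed signal intensities on a linear scale, from -1617.3 to 13068.7; the sources used here do not name the method of probe summary or scaling. After 40 control probe sets were left out, 34945 of 45037 probe sets named 1 gene, 932 several and 9160 none, and 34741 matched RefSeq by gene ID with 0 symbols changed. Values were set to at least 0, 16 was added, and log2 taken, so a log2 change understates that of dim genes.

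All tests used limma 3.58.1 in R 4.3.3 on all 24 arrays with 8 group means (16 residual degrees of freedom), with Benjamini-Hochberg adjustment over 14217 genes and a threshold of 0.05. There were 14 planned comparisons, and 3 between stimulated arms were added after seeing the data. An exact permutation test of 3 against 3 cannot go below p = 0.1 and was not used. Values for every array are given for members called anywhere, the 6 integrins and 4 laminins with the highest means, and up to 3 members per comparison with the smallest p and no overlap. From each partner list genes were picked from the up to 3 called ones with the largest change per comparison, but not all of these are named. Against unstimulated CD25, Tns3 in AcP (-0.49), Vcl (-0.35) and Adam9 (-0.32) in AcPb and Sdc1 in AcP+AcPb (-0.71) were such genes too. For the arrays with IL-1b only some are named. The members and all lists were chosen with earlier results of these data known. Alternatives covered scaling, filter, pseudocount, probe set rule, weights, trend, blocks and each array left out; the procedure was tested on simulated data.

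Among same-numbered arrays 3 of 21 pairs correlated above 0.1 (r from -0.13 to 0.24), and no pairing entered the main tests. Array number limits the precision.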

Additional observations from a re-analysis of the deposited data

Results flagged for a closer look

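No integrin or laminin gene met a rule for a closer look. The integrin ligands Icam1 and Vcam1 did, because their IL-1b responses differed between arms by a test of the difference itself. The response in AcP exceeded that in CD25 by 3.53 log2 units for Icam1 (limma adjusted p = 0.000126) and by 0.69 for Vcam1 (0.00372). AcP started lower: without IL-1b it differed from CD25 by -2.90 for Icam1 and -0.66 for Vcam1. With IL-1b it differed by 0.62 for Icam1 (limma adjusted p = 0.210) and 0.033 for Vcam1 (0.852), neither called. The response in AcPb minus that in AcP was -3.07 for Icam1 (limma adjusted p = 0.000943) and -0.58 for Vcam1 (0.0265), the last lost under 11 of 23 alternatives. Icam1 was near background on the AcP controls, so the size of its difference depends on the 16 units added before the log. A sample far from its group could not be sought, since groups hold 3 arrays.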

How the results depend on the processing

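The alternatives were run for 147 pairs of a gene and a comparison, not all of them named here. The 2643 refits gave 2311 results with the same direction and side of the threshold, 317 that lost a call, 7 that gained one and 8 that changed sign. The 2311 include pairs that were not called in the main fit and stayed uncalled, so they do not measure how stable the calls were. No scaling moved the median of all genes by more than 0.0995 log2 units. Shares over all genes are not given for the refits, so the counts below do not show whether members moved more than other genes. The counts of called members ran as follows when single arrays were left out: 0 to 1 in the AcP response and in AcP minus CD25 (1, Itga6, without AcP control 3), 6 to 12 in unstimulated AcP against CD25, 4 to 7 in AcPb, 4 to 9 in AcP+AcPb (4 without AcP+AcPb control 2, 5 without CD25 control 2 or 3), and 0 to 1 in AcPb or AcP+AcPb against AcP (1 without AcP control 3). On stimulated arrays they were 2 to 6 in AcP (2 without CD25 array 3 or AcP array 3, 3 without AcP array 2), 1 to 2 in AcPb (1 without CD25 array 2 or 3 or AcPb array 2 or 3) and 2 to 5 in AcP+AcPb (2 without CD25 array 3 or AcP+AcPb array 2). With only the arrays compared in the fit, which leaves fewer arrays to estimate the spread, 2 members were called in unstimulated AcP, 2 in stimulated AcP, 0 in stimulated AcPb and 1 in stimulated AcP+AcPb, against 9, 6, 2 and 4 in the full fit. Array weights gave 10 in unstimulated AcPb. The array code as a block and code m23B alone give the same estimate in unstimulated AcP+AcPb. It rests on 1 control array, so no count is given for it. Quantile normalization gave 1 in AcP+AcPb against AcP and 1 in stimulated AcPb, and centring gave 1 in the latter; the cause was not tested.

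With the replicate number as a block the responses and their differences still had 0 called members, unstimulated AcP against CD25 had 11, AcPb 6, AcP+AcPb 9, AcPb against AcP 0 and AcP+AcPb against AcP 1 (Itga6). Stimulated AcP had 8, AcPb 3 and AcP+AcPb 6, and 9 differed among the 8 groups. The correlations given earlier do not settle whether the numbers pair the arrays.

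Signs changed for values near 0. The Vcam1 response in AcPb (-0.0033) was 0.021 with quantile normalization, 0.0084 with array weights and -0.042 to 0.041 without single arrays. Icam1 in AcPb against AcP controls (0.11) ran from -0.34 to 0.37 and Vcam1 in stimulated AcP+AcPb (0.084) from -0.0070 to 0.13 without single arrays. Members with means under about 50 units, such as Itga1, Itga4 and Lamb2, were limited by signal over background.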
